A study of Mus musculus with 11 samples.

Results

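The CHD genes outside the NuRD complex are Chd8, Chd7, Chd6, Chd9, Chd1 and Chd2. These 6 genes were taken by symbol from the 24138 loci of the deposited expression table, and all 6 reached the mean of 1 FPKM (fragments scaled by transcript length and library size) that a locus needed to be tested, as did 12672 loci in all. RNA came from the cortex of mouse embryos at E14.5, when the cortical wall holds dividing progenitors and young neurons. The 2 conditional knockout (cKO) libraries were labelled Chd8 c/c with Emx1-cre. The 3 control libraries carried no Cre; the first of them was Chd8 c/+ by its label and the other two were Chd8 c/c, so every library carried at least 1 conditional allele. Emx1-cre acts in progenitors of the dorsal telencephalon and their progeny, and other cells of the cortex (interneurons born ventrally, microglia, vessels) keep Chd8 in the cKO. The labels do not say whether a library is 1 embryo or a pool. The p-values therefore judge a group difference against variation between these libraries, not between a known number of embryos. A protocol field speaks of an Eed knockout, whereas titles and genotypes name Chd8. The 6 ATAC-seq samples of sorted progenitors were not analysed here.

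CHD proteins are ATP-driven chromatin remodellers with a pair of chromodomains ahead of a SNF2-type motor, which slides or assembles nucleosomes. CHD1 and CHD2 carry a DNA-binding domain at their carboxyl end and act at transcribed genes. CHD6, CHD7, CHD8 and CHD9 form a branch marked by BRK domains. CHD8 is a high-confidence autism risk gene that was first described as a binder of beta-catenin. Mutations of CHD7 cause CHARGE syndrome, and those of CHD2 cause a childhood epilepsy.

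Of the 6 genes, Chd8, Chd7, Chd6 and the Chd2 locus were at lower FPKM in both cKO libraries than in every control, and Chd9 and Chd1 overlapped. Chd8 RNA stood at 55.2% of its control mean, Chd7 at 69.8%, Chd6 at 84.1% and the Chd2 locus at 88.5%, while Chd9 was at 102% and Chd1 at 109%. Both cKO libraries lay below every control at 15.6% of all tested loci. With each library rescaled to the same FPKM sum, Chd8 and Chd7 were still below every control in both cKO libraries, while Chd6 and the Chd2 locus overlapped the controls, so that the count was 2 in place of 4. None of the 6 passed the test over all loci (limma with Benjamini-Hochberg adjustment, adjusted p between 0.575 and 0.944), which called 6 loci or 0.0473% of those tested. In the authors' deposited table, Chd8 was the 1 gene of the 6 marked significant, where 4.21% of the loci with a completed test were so marked.

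**Figure D1:**
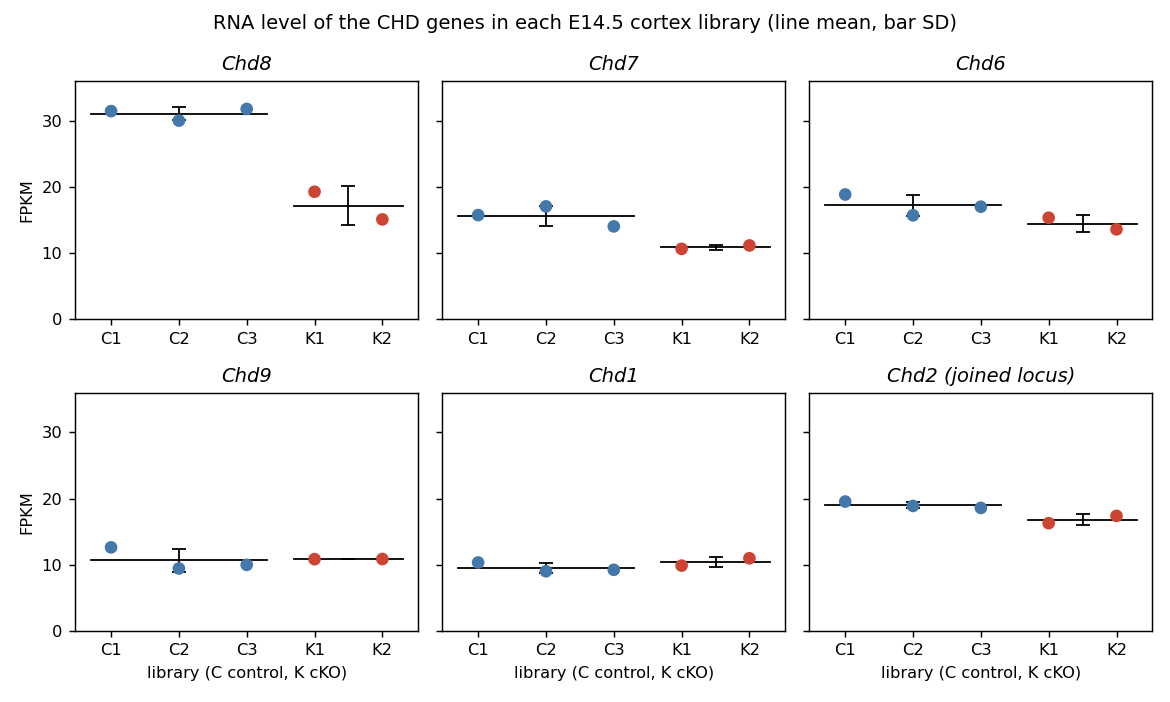
FPKM (vertical axis, linear from 0) of each gene in control libraries C1 to C3 (blue) and cKO libraries K1 and K2 (red), with the group mean as a line and the SD as a bar. Chd8 is at 30.02 or more in the controls and at 19.3 or less in the cKO, and Chd9 and Chd1 overlap between groups.

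Chd8, the targeted gene (XLOC_006637; chromosome 14, 52198151 to 52258042 in GRCm38.p6), was at 31.5, 30.02 and 31.8 FPKM in control libraries 1 to 3, and at 19.3 and 15.1 FPKM in cKO 1 and 2. The controls differed little (SD 0.937 FPKM), and the control labelled c/+ lay between the 2 labelled c/c. The cKO libraries differed more from each other, at 62.0% and 48.5% of the control mean, and a gap of 10.8 FPKM separated the higher of them from the lowest control. The log2 change, taken as cKO minus control of log2(FPKM + 1), which understates the change of low genes, was -0.83 (SE 0.15, 95% interval -1.19 to -0.46). In limma its unadjusted p was 0.00172, the rank of which was 33 among the tested loci, and its adjusted p was 0.575. The exact two-sided permutation test of its library values gave p = 0.1, the smallest that 10 splits of 3 and 2 libraries allow. The authors' deposited table gave a log2 fold change of -0.86 with a q-value of 0.00331. A larger log2 decrease was measured at 353 loci, or 2.79% of those tested. The labels do not name the floxed exons. An FPKM of a whole locus does not separate RNA of a recombined allele from RNA of cells without Cre, and in bulk tissue fewer cells of a type and less RNA per cell cannot be told apart.

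Promoter sequence from RefSeq was at hand for 3 of the 6 genes, and it is shown for the 2 of them, Chd8 and Chd6, whose deposited FPKM lay below every control in both cKO libraries. Each window runs from 250 bases before to 50 bases after an annotated start, 5′ to 3′ on the gene's own (minus) strand in GRCm38.p6, at chr14:52257711-52258010 for Chd8 and chr2:161109037-161109336 for Chd6. The Chd8 window lies wholly inside the span of its gene, whose higher coordinate is 52258042. The Chd6 window reaches past the higher coordinate of its gene, 161109086, so the 2 windows are placed differently against the genes. Capitals mark CCAAT and GGGCGG on either strand, 2 motifs that do not overlap each other here.
Chd8: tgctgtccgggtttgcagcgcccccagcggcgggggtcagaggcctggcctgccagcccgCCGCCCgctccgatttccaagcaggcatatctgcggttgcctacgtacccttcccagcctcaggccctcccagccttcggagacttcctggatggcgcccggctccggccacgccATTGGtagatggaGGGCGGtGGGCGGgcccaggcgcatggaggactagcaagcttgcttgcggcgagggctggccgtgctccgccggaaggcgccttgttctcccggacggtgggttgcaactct
Chd6: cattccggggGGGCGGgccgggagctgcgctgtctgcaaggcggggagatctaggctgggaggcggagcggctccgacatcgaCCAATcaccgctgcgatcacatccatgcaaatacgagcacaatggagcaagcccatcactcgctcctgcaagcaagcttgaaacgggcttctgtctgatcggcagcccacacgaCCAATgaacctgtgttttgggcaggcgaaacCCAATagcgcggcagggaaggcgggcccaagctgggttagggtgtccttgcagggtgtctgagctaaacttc
The Chd8 window held 1 CCAAT and 3 GGGCGG, and the Chd6 window 3 CCAAT and 1 GGGCGG. Among 32851 RefSeq promoter windows of this length, 37.4% held a CCAAT and 35.7% a GGGCGG on either strand. TATAAA, present in 13.6% of windows, had 0 matches in both. The windows held 26 and 20 CpG dinucleotides, against a median of 7 over all windows. These letter matches are descriptions and were not tied to the RNA values.

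Chd7, the CHARGE syndrome gene (chromosome 4, 8690402 to 8868449), was at 15.7, 17.05 and 14.02 FPKM in control libraries 1 to 3. In cKO 1 and 2 it was at 10.6 and 11.1 FPKM. The cKO libraries were close to each other, and both lay 2.88 FPKM or more below the lowest control. The log2 change was -0.48 (SE 0.13, 95% interval -0.82 to -0.14), with an unadjusted p of 0.0140 and an adjusted p of 0.575 in limma. The exact permutation test gave its smallest possible value, p = 0.1. The authors' deposited table gave a log2 fold change of -0.52 with a q-value of 0.0700, which was not marked significant. An unadjusted p under 0.05 was reached by Chd8 and Chd7 of the 6 genes, and by 7.45% of all tested loci.

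Chd6 (chromosome 2, 160946978 to 161109086), another member of the BRK branch, was at 18.8, 15.7 and 17.003 FPKM in control libraries 1 to 3 and at 15.3 and 13.6 FPKM in cKO 1 and 2. The groups were separated by 0.367 FPKM, less than the SD of the controls (1.58). The log2 change was -0.23 (SE 0.14, 95% interval -0.58 to 0.11, limma adjusted p = 0.581), and the exact permutation test gave p = 0.2. Chd9 (chromosome 8, 90828302 to 91054516), the last of this branch, was at 12.6, 9.42 and 9.97 FPKM in controls and at 10.83 and 10.85 FPKM in cKO 1 and 2. The cKO values were nearly equal and lay inside the control range, whose coefficient of variation was 16.0%, the widest of the 6 genes. Its log2 change was 0.03 (SE 0.16, 95% interval -0.37 to 0.43, limma adjusted p = 0.944). The interval leaves room for a difference in either direction, and the sign turned without control replicate 2 (-0.05) or without control replicate 3 (-0.01).

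Chd1, a remodeller linked to transcribing RNA polymerase II (chromosome 17, 15704967 to 15772612), was at 10.3, 9.001 and 9.22 FPKM in control libraries 1 to 3 and at 9.86 and 10.96 FPKM in cKO 1 and 2. Control replicate 1 lay between the cKO libraries, so the groups overlapped. The log2 change was 0.12 (SE 0.13, 95% interval -0.21 to 0.45, limma adjusted p = 0.735). Chd2 (chromosome 7, 73426652 to 73541746) shared its locus in the table with 1810026B05Rik, the long noncoding RNA now named Chaserr (chromosome 7, 73539798 to 73558395), whose gene starts upstream of Chd2 on the same strand and is known to restrain Chd2 in cis. The value of the joined locus cannot be assigned to either RNA. It was 19.5, 18.9 and 18.6 FPKM in control libraries 1 to 3 and 16.3 and 17.4 FPKM in cKO 1 and 2. Both cKO libraries lay 1.21 FPKM or more below the lowest control, and the controls were tight (coefficient of variation 2.59%). The log2 change was -0.17 (SE 0.12, 95% interval -0.45 to 0.12, limma adjusted p = 0.626), and the exact permutation test gave its smallest possible value, p = 0.1.

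**Figure D2:**
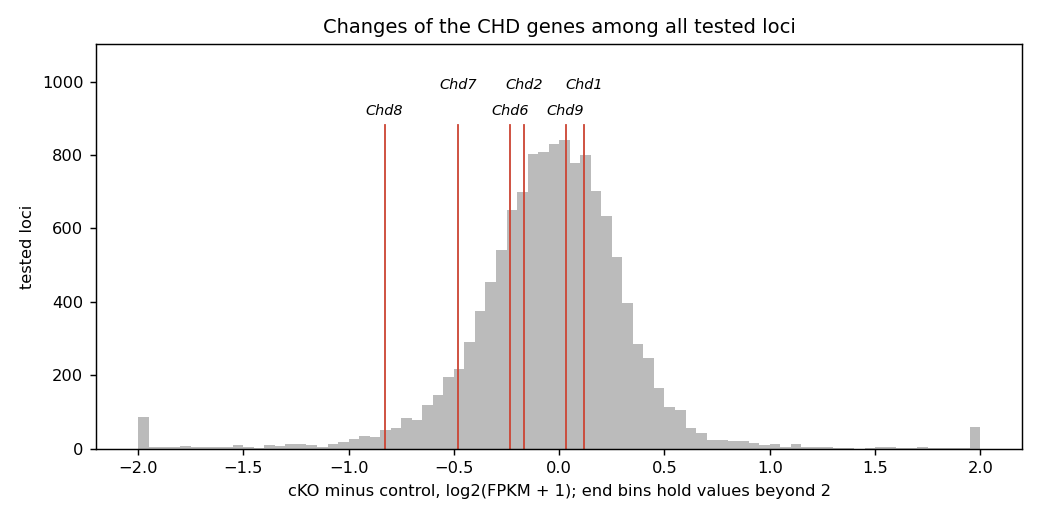
Histogram of the log2 change (horizontal axis, cKO minus control on log2(FPKM + 1)) of the 12672 tested loci, with a red line at each CHD gene and Chd2 standing for its joined locus. Chd8 at -0.83 sits in the lower tail, Chd7 at -0.48 on the lower shoulder, and Chd9 and Chd1 near the middle.

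Per length, Chd8 was the most abundant of the 6 in the controls, at 31.1 ± 0.937 FPKM (SD, n = 3), above 75.7% of tested loci. Its lowest control value exceeded the highest of the next gene, the Chd2 locus, at 18.998 ± 0.493. The Chd2 locus and Chd6 (17.2 ± 1.58) had overlapping ranges over the controls, as did Chd6 and Chd7 (15.6 ± 1.52). A gap separated Chd7 from Chd9 (10.7 ± 1.71), and Chd9 and Chd1 (9.52 ± 0.709) overlapped. In the cKO (n = 2) Chd8 was at 17.2 ± 2.96 FPKM and overlapped the Chd2 locus at 16.8 ± 0.774. Chd8 was the higher of the 2 in cKO 1 and the lower in cKO 2. The remaining order of means was the same as in the controls, with Chd6 at 14.46 ± 1.24, and Chd7 (10.9 ± 0.365), Chd9 (10.8 ± 0.0134) and Chd1 (10.4 ± 0.784) overlapping at the bottom. Chd7 thus overlapped Chd9 and Chd1 in the cKO and was separated from both in the controls.

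Summed over the 6 genes, FPKM was 103 ± 4.74 in the controls and 80.6 ± 2.26 in the cKO. Chd8 made up between 29.0% and 31.6% of the sum in the controls, against 23.4% and 19.1% in cKO 1 and 2. The sum of the other 5 genes was 77.1, 70.04 and 68.8 in the controls and 62.9 and 63.9 in the cKO. The groups did not overlap in the sum, in the Chd8 share or in the sum of the other 5 genes (exact permutation p = 0.1 for each, the smallest possible). Rescaled to the same library sum, the sum of the other 5 genes overlapped between groups, and the sum over all 6 did not.

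The ratio of Chd8 to another gene within a library asks whether the change of Chd8 differed from that of the other gene. The ratio of Chd8 to Chd1 was 3.05, 3.33 and 3.45 in control libraries 1 to 3 and 1.95 and 1.38 in cKO 1 and 2. The mean ratio of Chd8 to Chd9 went from 2.96 ± 0.401 to 1.58 ± 0.275, that to Chd6 from 1.82 ± 0.130 to 1.18 ± 0.103, and that to the Chd2 locus from 1.64 ± 0.0647 to 1.026 ± 0.223. For these 4 genes the ratios of the groups did not overlap, with log2 differences of -0.95 for Chd1, -0.86 for Chd9, -0.60 for Chd6 and -0.66 for the Chd2 locus. The exact permutation test gave p = 0.1 for each, the smallest possible, and 0.125 adjusted over the 5 ratios. Chd8 itself did not overlap between groups, so its ratio to a steady gene would separate as well. The share of all tested loci whose ratio to Chd8 separates was not computed. The ratio of Chd8 to Chd7 overlapped between groups, at 1.999, 1.76 and 2.27 in controls and 1.81 and 1.35 in cKO 1 and 2. Its cKO 1 value lay inside the control range, and the log2 difference was -0.35 (exact permutation p = 0.3, adjusted 0.3). No ratio could pass a threshold of 0.05 in an exact test of 10 splits, so a difference between the change of Chd8 and that of another gene was not shown for any of the 5. Without cKO 2 this log2 difference was -0.15, and without cKO 1 it was -0.55.

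**Figure D3:**
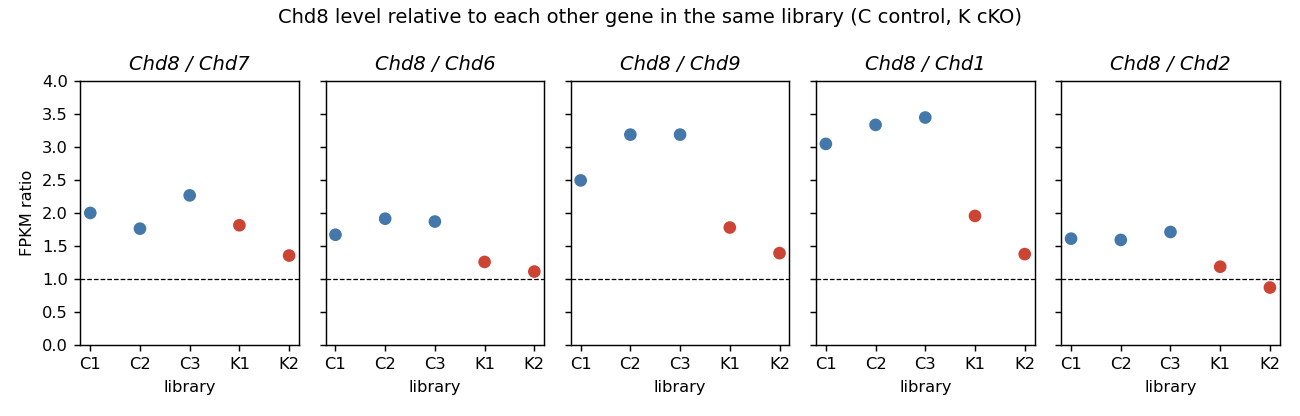
FPKM of Chd8 divided by that of each other gene (vertical axis, dashed line at equal FPKM) in control libraries C1 to C3 (blue) and cKO libraries K1 and K2 (red), with Chd2 standing for its joined locus. The groups separate for Chd6, Chd9, Chd1 and Chd2, and overlap for Chd7, where K1 (1.81) lies above C2 (1.76).

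The nearest tested locus outside each member's span was read on each side as background. Gaps ran from 912 bases (Supt16, beside Chd8) to 479 kb (Tox3, beside Chd9), so not all of these loci are close. Supt16, a subunit of the histone chaperone FACT, ends 912 bases from Chd8 (chromosome 14, 52160419 to 52197239). It was at 55.2, 63.1 and 60.7 FPKM in control libraries 1 to 3 and at 59.1 and 57.5 FPKM in cKO 1 and 2, inside the control range. Rab2b, a small GTPase gene 3.72 kb from Chd8 on the other side, was at 22.1, 12.98 and 15.9 FPKM in controls and 21.4 and 18.8 in the cKO. Of 12 such neighbours, 0 were called by limma, 1 lay below every control in both cKO libraries and 1 above. Over all tested loci the shares were 0.0473%, 15.6% and 13.4%. The first was Rgma, a repulsive guidance molecule 6.75 kb from Chd2, at 62.5 ± 13.5 FPKM in controls and 43.5 ± 3.96 in the cKO (log2 change -0.50, limma adjusted p = 0.575). The second was Rab2a, a paralog of Rab2b 82.7 kb from Chd7, at 89.3 ± 15.9 and 111 ± 0.242 FPKM (log2 change 0.33, limma adjusted p = 0.575).

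The 6 genes are long, with spans of 59.9 kb (Chd8) to 226 kb (Chd9). The 3054 tested loci with a span at or above that of Chd8 had a median log2 change of 0.05, and both cKO libraries lay below every control at 11.7% of them. The 9594 shorter loci had a median of -0.05 and a share of 16.9%. The log2 change was negative at 42.6% of the long loci and at 56.4% of the shorter ones. Of the 6 genes, Chd8, Chd7, Chd6 and the Chd2 locus had a negative change, and Chd9 and Chd1 a positive one. A part of span in these values was not tested.

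The 5 loci most like Chd8 over the 5 libraries, among 7255 others with 1 symbol and a mean of at least 10 FPKM, were Rufy1, an endosomal adaptor, Akap8l, a nuclear matrix protein, Cdh24, a classical cadherin, Smyd5, a SET-domain methyltransferase, and Alkbh7, a mitochondrial dioxygenase. Likeness was the mean absolute difference of the log2(FPKM + 1) profiles after centring, which ran from 0.07 for Rufy1 to 0.11 for Alkbh7. Rufy1 was at 15.4, 14.4 and 16.8 FPKM in control libraries 1 to 3 and 9.61 and 8.52 FPKM in cKO 1 and 2. Akap8l was at 36.7, 33.0 and 37.9 FPKM in controls and 25.996 and 16.7 in the cKO. Chd7 stood at place 140 in this order (0.18), Chd6 at place 1223 (0.29) and Chd9 at place 3944 (0.41).

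The other CHD genes included Chd3, Chd4 and Chd5, the motors of NuRD, and Chd1l, a remodeller recruited to DNA breaks. Chd4 was at 118, 131 and 117 FPKM in control libraries 1 to 3 and 93.02 and 58.97 in cKO 1 and 2, below every control in both (log2 change -0.71, SE 0.22). Chd3 was at 135, 186 and 161 FPKM in controls and 145 and 62.2 in the cKO, with cKO 1 inside the control range. None of the 4 was called by limma, while the authors' deposited table marked Chd4 (q-value 0.0152) and Chd3 (q-value 0.0398). Chd5 (log2 change 0.03) and Chd1l (-0.17) overlapped between groups and were not marked. Of all loci with a completed test 4.21% were marked, and both cKO libraries lay below every control at 15.6% of tested loci. The log2 change of Chd4 was -0.39 without cKO 2 and -1.03 without cKO 1, and that of Chd3, -0.74 with all libraries, was -0.14 and -1.35. For Chd8 it was -0.66 without cKO 2 and -0.996 without cKO 1, and for Chd7 -0.51 and -0.45.

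**Figure D4:**
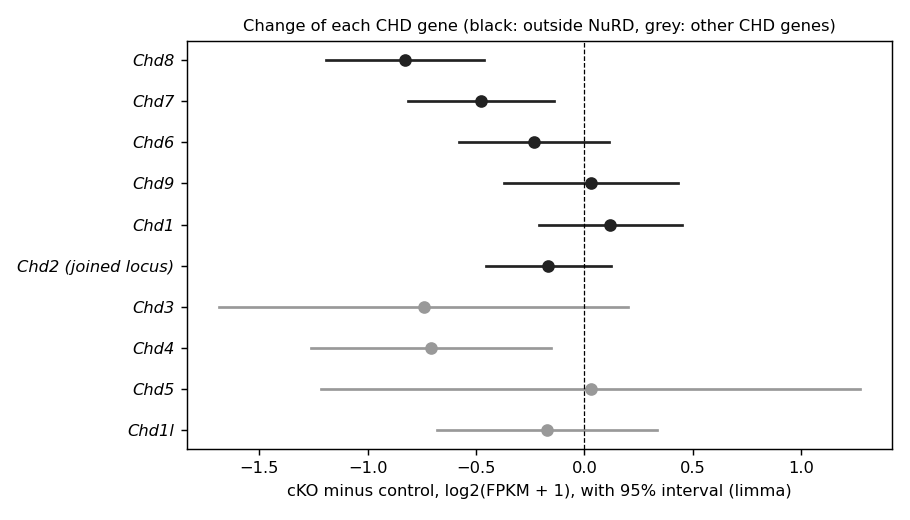
Log2 change (points, cKO minus control on log2(FPKM + 1)) of each CHD gene with its 95% interval from limma, black for the genes outside NuRD and grey for the other CHD genes. The intervals of Chd8, Chd7 and Chd4 lie below 0 before adjustment, and those of Chd3 and Chd5 are the widest.

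Other SNF2-type motors, which share the ATPase fold with the CHD proteins, did not lean to 1 side. Of 22 tested, 0 were called by limma, 10 had a negative log2 change and 12 a positive one, with a median of 0.04 beside -0.02 over all tested loci. Both cKO libraries lay below every control for 5 of them and above for 4, where the shares over all tested loci were 15.6% and 13.4%. Ino80, the motor of the INO80 complex, was at 7.83 ± 0.380 FPKM in controls and 5.92 ± 0.399 in the cKO (log2 change -0.35, SE 0.13). Smarca5, an ISWI motor, was at 15.02 ± 0.966 and 18.8 ± 2.26, and Shprh, a ubiquitin ligase with a SNF2 domain, at 11.7 ± 1.04 and 14.7 ± 1.34 FPKM.

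Partners of CHD8 and CHD7 were read from short lists. Of 8 genes whose proteins are reported to bind CHD8, Chd7 among them, 4 had a negative and 4 a positive log2 change (median 0.01), and 0 were called. Both cKO libraries lay below every control for 3 of them (Chd7, Trp53 and Ctcf) and above for 0. Over all tested loci the shares were 15.6% and 13.4%. Shared subunits of the KMT2 methyltransferase complexes were in this list, and their log2 changes were 0.02 for Wdr5, 0.05 for Ash2l and 0.09 for Rbbp5, and that of Ctnnb1, the beta-catenin gene, was -0.003. Trp53, which encodes p53, was at 46.2, 84.1 and 57.9 FPKM in control libraries 1 to 3 and 45.3 and 45.98 in cKO 1 and 2, so that cKO and control replicate 1 were within 1 FPKM of each other. Ctcf, the insulator factor, was at 50.2 ± 2.12 and 45.1 ± 3.66 FPKM. Of the 4 CHD7 partners, Brd7, Pbrm1 and Arid2 of the PBAF remodeller and the progenitor factor Sox2, 1 had a negative change (Brd7, -0.34) and 3 a positive one (median 0.13), and 0 were called. Both cKO libraries lay below every control for 0 of these 4 and above for 1, beside the same shares.

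Genes that work with CHD1 and CHD2 during elongation and histone replacement had mostly negative changes that did not pass the test. Of 11 tested, 9 had a negative log2 change (81.8%, beside 53.1% of all tested loci), with a median of -0.20, and 0 were called by limma. Both cKO libraries lay below every control for 4 of the 11 and above for 1, beside 15.6% and 13.4% of all tested loci. The 2 genes of histone H3.3 gave -0.03 (H3f3a) and 0.31 (H3f3b). Paf1, the name-giving subunit of the PAF1 complex, was at 45.8 ± 5.06 FPKM in controls and 35.1 ± 5.24 in the cKO. Supt5, a subunit of the elongation factor DSIF, was at 67.1 ± 8.85 and 50.7 ± 7.64 FPKM, and Leo1, another PAF1 complex subunit, at 24.5 ± 2.52 and 19.5 ± 2.52 FPKM. The median of this list was -0.05 without cKO 2 and -0.39 without cKO 1.

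Marker genes show which cells the libraries held, and their part in the CHD values was not tested. All 8 dorsal cortex markers were present, with sums of 579 to 1394 FPKM in the controls and 604 to 931 in the cKO. Of these 8, 7 had a negative log2 change (median -0.43), 2 lay below every control in both cKO libraries (15.6% of all tested loci) and 1 above (13.4%). The 1 above was Tbr1, a factor of early-born neurons, at 64.2, 119 and 97.6 FPKM in control libraries 1 to 3 and 138 and 135 in the cKO. The 2 below were Eomes, a factor of intermediate progenitors, and Emx1. The latter, whose promoter drives the Cre, was at 37.1, 165 and 89.8 FPKM in control libraries 1 to 3 and 34.4 and 27.3 in cKO 1 and 2. Chd8 was between 30.02 and 31.8 FPKM over the same controls, which carried no Cre, and a link between these 2 genes was not tested. The 8 ventral telencephalic markers summed to 214 to 369 FPKM in the controls and 435 to 527 in the cKO, and 6 of them lay above every control in both cKO libraries, as did 13.4% of all tested loci. The 8 microglial markers summed to 26.4 to 43.9 and 80.2 to 85.2 FPKM, with 7 above every control, beside the same 13.4%. Vascular markers (8 genes) summed to 72.7 to 85.5 and 87.4 to 97.3 FPKM, with a median log2 change of 0.06. The pericyte gene Rgs5 was the 1 vascular marker above every control in both cKO libraries, at 13.5 ± 2.24 and 23.4 ± 5.71 FPKM. Erythroid markers (5 loci) summed to 707 to 726 and 656 to 833. The 5 meningeal markers summed to 3.07 to 17.7 FPKM in the controls and 4.399 to 5.83 in the cKO, and Lum was listed at 0 in 3 of the 5 libraries.

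**Figure D5:**
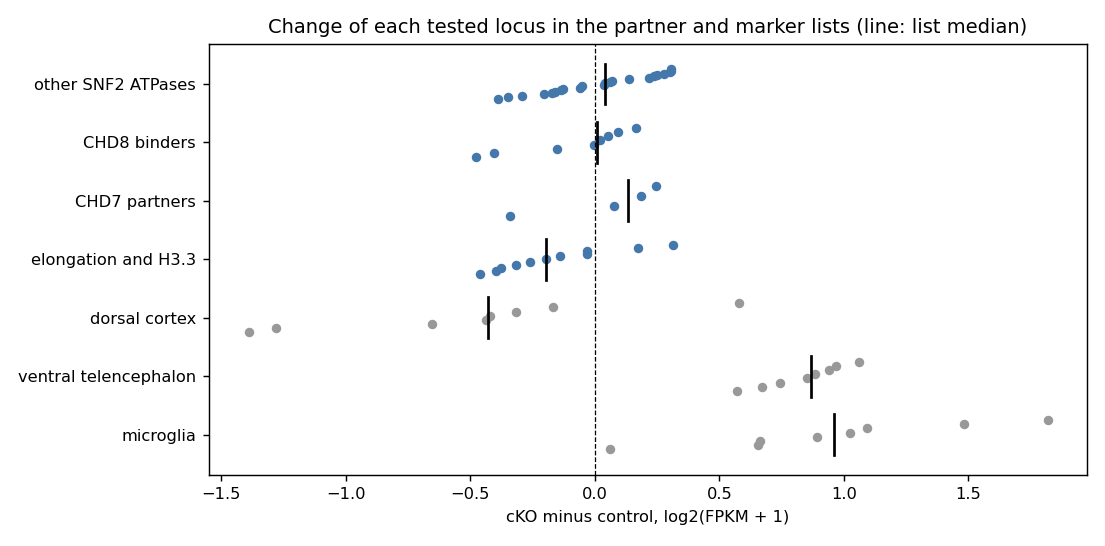
Log2 change (horizontal axis, cKO minus control on log2(FPKM + 1)) of each tested locus in 4 lists of related chromatin genes (blue) and 3 marker lists (grey), with the list median as a line. The medians of the chromatin lists lie between -0.20 and 0.13, and those of the marker lists between -0.43 and 0.96.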

How the data were processed

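The expression table held FPKM as deposited by the authors, 1 value for each locus in each library. Per the file headers, it also held the authors' comparison, with its q-value, p-value and statistic (a score) beside a log2 fold change. The submitters' processing notes name CASAVA, TopHat, Cufflinks, Bowtie2, MACS and the build mm10. Roles, strand handling and gene models: not given in the sources used here.

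A locus was tested where its 5 libraries averaged 1 FPKM or more. Values entered limma 3.58.1 under R 4.3.3 as log2(FPKM + 1), using the intensity trend and Benjamini-Hochberg adjustment over all tested loci. This scale understates changes of low genes. The fit had 3 residual degrees of freedom. FPKM carries no counts, and depth is unknown. Among values under 0.05 FPKM, between 17.6% and 53.2% of loci lay within 0.15 log2 units of the commonest ratio to control replicate 1. No depth from these ratios was used. FPKM summed to between 418191 and 484296 per library.

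Members and lists were chosen with earlier results of these data known. Named were the 6 genes, Chd1l and the NuRD motors, the tested neighbours outside each gene's span, up to 3 members of each partner list with the smallest unadjusted p, and the 5 loci most like Chd8. Tbr1, Eomes, Rgs5, Wdr5, Ash2l, Rbbp5, Ctnnb1, Sox2, H3f3a and H3f3b were named after their values were seen. Spans, coordinates and promoters came from RefSeq of GRCm38.p6, matched by symbol for 12648 tested loci. Alternatives were other filters, pseudocounts and scalings, no trend, a replicate block and leaving out each library.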

Additional observations from a re-analysis of the deposited data

How the results depend on the processing

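Over 13 alternatives, Chd8, Chd7, Chd6 and the Chd2 locus kept a negative log2 change and Chd1 a positive one. The other filters and the fit without the trend cannot move a log2 change, so only the remaining alternatives could have turned a sign. No gene passed the adjusted threshold in limma under any of them. Leaving out 1 library moved the log2 change of Chd8 between -0.996 and -0.66, Chd7 between -0.55 and -0.42, Chd6 between -0.31 and -0.15, the Chd2 locus between -0.21 and -0.12, Chd1 between 0.05 and 0.19, and Chd9 between -0.05 and 0.15. Chd9 changed sign without control replicate 2 (-0.0458), without control replicate 3 (-0.00865) and with the replicate block (-0.00865); the cause was not tested. In the block the log2 change of Chd8 was -0.81 (adjusted p = 0.970). Deviations from the group means correlated at -0.07 for libraries numbered 1 and -0.11 for libraries numbered 2. The deviations of 2 cKO libraries mirror each other, so this check cannot tell whether the numbers pair the libraries.

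The count of called loci, 6, was 3 with the replicate block, with fewer residual degrees of freedom, and between 9 and 37 without 1 library; the cause was not tested. In particular it was 15 and 14 when control replicate 1 or 2 was left out, and 25 and 37 when cKO replicate 1 or 2 was. The number of genes below every control, a check added after seeing the data, was 4 with median-ratio scaling and quantile normalisation and 2 with each library rescaled to the same sum, where Chd6 and the Chd2 locus overlapped control replicate 2. Leaving out a library can only ease this criterion, and the share of all tested loci that met it reached 34.7% without cKO replicate 1. In each such setting the count was 4.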
